A study of Mus musculus with 2 samples.

Results

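The genes of 10 products that define a mature fat cell were examined for differences in DNA methylation between PDGFRα+ and CD137+ adipose progenitors of C57BL/6 mice. The genes were Fabp4, Retn, Gpd1, Adipoq, Lep, Lpl, Plin1, Cidec, Pnpla2 and Cd36, and all 10 matched a RefSeq gene. Regions were taken from the authors' table of differentially methylated regions when they overlapped the gene span or lay within 10 kb of it. This gave 9 of the 28141 regions in the table, at 5 of the 10 genes, and all 9 lay within 2 kb of their gene.

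Whole-genome bisulfite sequencing measures methylation by converting unmethylated cytosines, and the level of a region, from 0 to 1, is the methylated fraction that the authors give for it. The 2 groups were PDGFRα+ cells (also called CD140+), sorted for a growth factor receptor of mesenchymal progenitors, and CD137+ cells, sorted for a receptor of the tumour necrosis factor family used to mark beige fat precursors. Both groups had been sorted magnetically, grown in culture and induced with an adipogenesis cocktail, and both then received dexamethasone, a synthetic glucocorticoid, at 1 µM. No untreated cells were compared, and the labels call the cells progenitors although differentiation had been induced. Each group was 1 library from fat that was subcutaneous or visceral, and the depot, the age and the number of animals behind each library are not given in these sources. With 1 library per group, no difference below has a replicate check, no p-value is given, and differences between the cell types, the depots and the 2 preparations cannot be told apart. Read depth is unknown, so levels carry no interval. Methylation does not measure RNA, and whether these genes were expressed in either library was not measured.

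A mature adipocyte takes up fatty acids released from lipoproteins, joins them to a glycerol backbone, stores the triglyceride in a large lipid droplet and releases hormones into the blood. Many genes for these steps are switched on during differentiation, in large part by PPARγ and C/EBP transcription factors. Methylation of cytosines in CpG pairs at promoters and enhancers is in general associated with low activity of the gene, and the promoter of the leptin gene is known to lose methylation when fat cells form.

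The 5 genes with a region were Fabp4, Retn, Gpd1, Cd36 and Lep. That is 5 of 10 genes, against 38.4% of 21887 protein-coding genes with a region within 10 kb. Among protein-coding genes with a span in the range of these 10 (4049 to 107270 bases), the share was 38.8%. Without Cd36, by far the longest gene, it was 4 of 9 genes, against 30.0% of protein-coding genes of 4049 to 26378 bases. Counted within 2 kb, it was again 5 of 10 genes, against 29.5% of all protein-coding genes, and 4 of 10 genes had a region inside the span, against 26.8%. The regions did not share a direction: 4 were more methylated in PDGFRα+ cells and 5 were less methylated. Over all 28141 regions, 22.3% were higher in PDGFRα+ cells, and of pairs of a protein-coding gene and a region within 10 kb, 26.3%. A higher region lay at 4 of the 10 genes, against 15.9% of protein-coding genes, and a lower region at 5 of the 10, against 31.3%.

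Fabp4, Retn, Gpd1 and Cd36 each had exactly 2 regions, and in each gene the pair was split, with 1 region higher and the other lower in PDGFRα+ cells. Regions of each direction thus lay at 4 of the 10 genes, against 8.72% of protein-coding genes. Of the 1807 protein-coding genes with exactly 2 regions within 10 kb, 33.0% had a split pair, 54.5% had both regions lower and 12.5% had both higher. Lep had a single region, which was lower. The mean difference over the 9 regions, PDGFRα+ minus CD137+, was -0.0637, against -0.299 over all regions, and it depends on the 4 to 5 split of directions. The median difference was -0.480, close to the -0.488 over all regions. The absolute differences ran from 0.422 (Cd36) to 0.674 (Retn), with a median of 0.552 against 0.522 over the table.

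**Figure D1:**
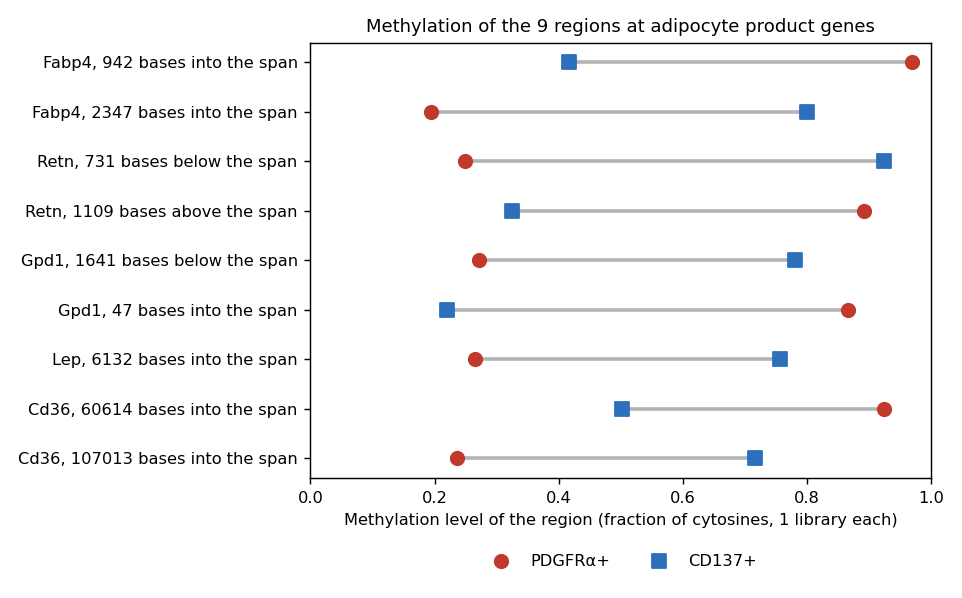
Methylation level (fraction of cytosines, x axis) of each of the 9 regions in the PDGFRα+ library (red circles) and the CD137+ library (blue squares), 1 row per region with its gene and its place relative to the gene span. In 4 regions the PDGFRα+ level lies between 0.865 and 0.968, to the right of CD137+, and in 5 it lies between 0.194 and 0.272, to the left.

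Fabp4 encodes the cytoplasmic fatty acid carrier of adipocytes (gene ID 11770, chromosome 3 from 10204342 to 10208616 in mm10). Both of its regions lay inside the 4.28 kb gene span. The first, 942 bases from the lower end of the span (chr3:10205284-10205898), had a level of 0.968 in PDGFRα+ cells and 0.416 in CD137+ cells. It was 615 bases long with 22 cytosines, and its length stood at the 95.0 percentile of the table. The second, chr3:10206689-10206904, had a level of 0.194 in PDGFRα+ cells and 0.799 in CD137+ cells over 8 cytosines. Only 790 bases separated these opposite regions. Consecutive regions at most 1000 bases apart had opposite directions in 5.52% of 1720 pairs over the table, and in 22.3% of the 667 pairs that lay 1000 to 2000 bases apart. The higher region of Fabp4 had the highest PDGFRα+ level of the 9.

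Cd36 encodes a membrane receptor that takes up long-chain fatty acids (gene ID 12491, chromosome 5 from 17781690 to 17888959, on the minus strand). Its span of 107 kb was the longest of the 10, the next being that of Lpl with 26.4 kb. A region inside the span, chr5:17842304-17842544, had a level of 0.923 in PDGFRα+ cells and 0.501 in CD137+ cells over 9 cytosines. Its nearest base lay 6408 bases upstream of the start listed in the RefSeq promoter table, at base 17835896. The other region, chr5:17888703-17888929, had a level of 0.236 in PDGFRα+ cells and 0.716 in CD137+ cells, also over 9 cytosines. It ended 30 bases inside the upper end of the span, which for a gene on the minus strand is its most upstream end. The pair lay 46158 bases apart, and regions 10000 to 50000 bases apart were opposite in 32.4% of 10121 consecutive pairs. The promoter window at the listed start, from 250 bases before it to 50 after, is shown because a higher region lay upstream of it and no region overlapped it. It held only 3 CpG pairs, printed in capitals, read 5′ to 3′ on the gene's strand (GRCm38.p6, the assembly of mm10, chr5:17835847-17836146, minus strand).
Cd36: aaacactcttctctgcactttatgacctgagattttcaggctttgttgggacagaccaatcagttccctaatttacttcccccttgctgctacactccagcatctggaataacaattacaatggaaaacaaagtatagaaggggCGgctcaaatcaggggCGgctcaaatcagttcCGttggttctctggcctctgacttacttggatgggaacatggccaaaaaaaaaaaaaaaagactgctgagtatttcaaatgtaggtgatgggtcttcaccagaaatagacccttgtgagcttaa

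Lpl encodes lipoprotein lipase, the enzyme that frees fatty acids from circulating triglyceride (gene ID 16956, chromosome 8 from 68880555 to 68906932). It had no region within 10 kb. The nearest lay 30394 bases below the span, chr8:68850082-68850161, with a level of 0.243 in PDGFRα+ cells and 0.966 in CD137+ cells. That difference of -0.723 was the widest within 50 kb of any of the 10 genes, but the region was 80 bases long and held 4 cytosines.

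Gpd1 encodes the cytosolic glycerol-3-phosphate dehydrogenase that supplies the glycerol backbone of triglyceride (gene ID 14555, chromosome 15 from 99717587 to 99725014). Its higher region began 47 bases inside the lower end of the span (chr15:99717634-99717920), with a level of 0.865 in PDGFRα+ cells and 0.220 in CD137+ cells over 9 cytosines. The lower region lay 1641 bases below the span (chr15:99715407-99715946), with a level of 0.272 in PDGFRα+ cells and 0.780 in CD137+ cells over 30 cytosines, the most of any of the 9. A gap of 1687 bases separated them. Both regions also overlapped Gm16537, a long noncoding RNA gene, and the lower region lay closer to Smarcd1 (1412 bases), which encodes a subunit of the SWI/SNF chromatin remodelling complex, than to Gpd1. It was the only one of the 9 nearer to another protein-coding gene than to its own, but 5 of the 9 lay within 10 kb of another one. These were both regions of Gpd1, with the higher one 3639 bases from Smarcd1, the downstream region of Retn, and both regions of Fabp4, which lay 8001 and 9406 bases from Fabp9, a gene of the same fatty acid carrier family.

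The genes of the droplet proteins and of the lipase that acts on the droplet had no region within 10 kb. Neither had Lpl and Adipoq, so this was not particular to the droplet genes. A region lay within 10 kb of only 38.4% of protein-coding genes, and of 30.0% of those of 4049 to 26378 bases. Plin1 encodes perilipin, the coat of the adipocyte lipid droplet (gene ID 103968, chromosome 7 from 79721164 to 79732904). It was the only one of the 10 genes without a region within 50 kb, and the nearest lay 135054 bases away, with a level of 0.371 in PDGFRα+ cells and 0.841 in CD137+ cells. Cidec encodes a protein that merges lipid droplets (gene ID 14311, chromosome 6 from 113424634 to 113435760). Its nearest region lay 35731 bases above the span, within Il17rc, with a level of 0.190 in PDGFRα+ cells and 0.851 in CD137+ cells. Pnpla2 encodes adipose triglyceride lipase, which starts the breakdown of stored fat (gene ID 66853, chromosome 7 from 141455188 to 141460743). Its nearest region lay 25796 bases below the span, within Cend1, with a level of 0.142 in PDGFRα+ cells and 0.575 in CD137+ cells. A gene without a region may have equal levels in both libraries or too little coverage to be called, and the table of called regions does not separate these.

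Retn encodes resistin, a hormone secreted by mouse adipocytes (gene ID 57264, chromosome 8 from 3655770 to 3659818, on the plus strand). Both of its regions lay just outside the span, on opposite sides. The upstream one, chr8:3654495-3655039, ended 731 bases before the start of the gene and had a level of 0.249 in PDGFRα+ cells and 0.923 in CD137+ cells over 26 cytosines. Its difference of -0.674 was the largest of the 9, and its area statistic of -337 stood at the 98.9 percentile of absolute values in the table. The downstream one, chr8:3660927-3661241, lay 1109 bases beyond the end of the gene and had a level of 0.891 in PDGFRα+ cells and 0.324 in CD137+ cells over 16 cytosines. The pair lay 5887 bases apart, and 28.3% of 3954 consecutive pairs at 2000 to 10000 bases were opposite. No other gene overlapped either region, and the nearest protein-coding genes besides Retn were Stxbp2, at 10497 bases from the upstream region, and Mcemp1, at 4521 bases from the downstream one.

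Lep encodes leptin, the hormone that reports fat stores to the brain (gene ID 16846, chromosome 6 from 29060221 to 29073876, on the plus strand). Its region lay inside the span, 6132 bases downstream of the listed start (chr6:29066353-29066581), with a level of 0.265 in PDGFRα+ cells and 0.756 in CD137+ cells over 18 cytosines. At 7.86 cytosines per 100 bases it was the most cytosine-dense of the 9, against a median of 4.62 in the table. Adipoq encodes adiponectin, an insulin-sensitising hormone made by fat cells (gene ID 11450, chromosome 16 from 23146536 to 23157968, on the plus strand). It had no region within 10 kb, and the nearest lay 11904 bases beyond its end, just outside the limit (chr16:23169872-23170365), with a level of 0.244 in PDGFRα+ cells and 0.794 in CD137+ cells over 17 cytosines. The next region outside the limit lay 12579 bases beyond the end of Lep and was also lower, with a level of 0.371 in PDGFRα+ cells and 0.864 in CD137+ cells. Inside the limit, the region farthest from its gene was the lower one of Gpd1, at 1641 bases.

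The promoter windows of the hormone genes are shown because the regions of Retn and Lep lay upstream and downstream of them and not within. They are RefSeq sequences of GRCm38.p6, read 5′ to 3′ on the plus strand, with CpG pairs in capitals, at chr8:3655520-3655819 for Retn, chr6:29059971-29060270 for Lep and chr16:23146286-23146585 for Adipoq.
Retn: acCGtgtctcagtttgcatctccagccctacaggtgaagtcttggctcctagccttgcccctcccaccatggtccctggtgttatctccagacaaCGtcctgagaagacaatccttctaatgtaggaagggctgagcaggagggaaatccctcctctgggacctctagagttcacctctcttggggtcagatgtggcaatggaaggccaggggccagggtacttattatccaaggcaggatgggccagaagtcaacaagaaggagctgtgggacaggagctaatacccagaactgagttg
Lep: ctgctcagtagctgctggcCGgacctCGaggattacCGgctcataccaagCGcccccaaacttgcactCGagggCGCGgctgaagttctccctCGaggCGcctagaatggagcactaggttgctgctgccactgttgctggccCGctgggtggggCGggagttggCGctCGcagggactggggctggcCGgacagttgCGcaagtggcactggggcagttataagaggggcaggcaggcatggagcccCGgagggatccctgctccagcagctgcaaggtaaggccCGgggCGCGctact
Adipoq: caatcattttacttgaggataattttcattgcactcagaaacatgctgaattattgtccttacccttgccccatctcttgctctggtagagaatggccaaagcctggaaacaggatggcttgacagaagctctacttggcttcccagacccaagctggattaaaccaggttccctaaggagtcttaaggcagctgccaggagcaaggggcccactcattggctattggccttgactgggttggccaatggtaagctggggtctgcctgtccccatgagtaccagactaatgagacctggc
Lep had 19 CpG pairs in this window, Retn had 2 and Adipoq had 0, against a median of 7 over 32851 promoter windows. The Adipoq window thus held no CpG cytosine that could have been counted in a region. Of the 10 genes, 7 had a promoter window in the table (8 windows, with 2 for Cidec). None of the 8 was overlapped by a region, against 1.42% of all windows. Fabp4, Gpd1 and Lpl had no listed window, so this count does not cover the higher region of Gpd1, which began 47 bases inside the span. The only window of Cd36 was at a start inside the span, whereas its lower region ended 30 bases inside the most upstream end. Regions at starts without a listed window would therefore be missed.

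**Figure D2:**
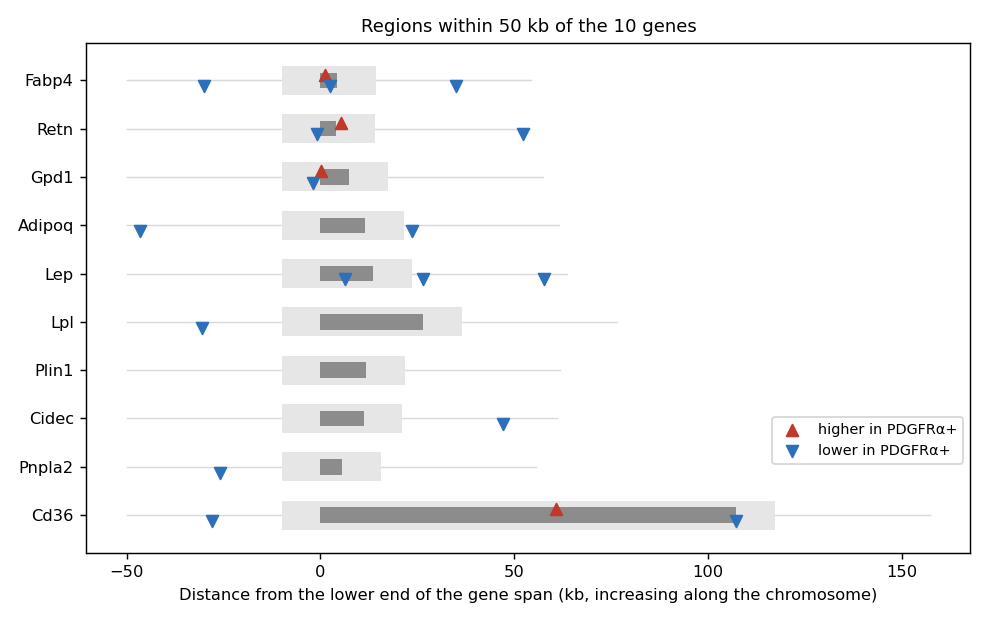
Position of every region within 50 kb of the 10 genes, as distance in kb from the lower end of the gene span (x axis), 1 row per gene. Dark bars are gene spans, light bars add 10 kb on each side, red upward triangles are regions higher and blue downward triangles regions lower in PDGFRα+ cells, and all 4 higher regions lie in or next to a gene span.

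The higher regions lay close to the genes, and farther out the regions were lower without exception. Between 10 and 50 kb from the spans, 8 of the 10 genes had a region, against 51.5% of protein-coding genes. Of these 11 regions, 0 were higher in PDGFRα+ cells, against 4 of 9 within 10 kb. Over all protein-coding genes, pairs of a gene and a region were higher in 26.3% of cases within 10 kb and in 28.0% at 10 to 50 kb. The 11 outer regions had levels from 0.0744 to 0.371 in PDGFRα+ cells (median 0.243) and from 0.575 to 0.966 in CD137+ cells (median 0.789). Their distances from the spans ran from 11904 to 48115 bases. Most of these outer regions lay closer to another protein-coding gene than to the adipocyte product gene. The exceptions were the region 11904 bases from Adipoq and the region 12579 bases from Lep. Some lay inside other genes, those of Clec4g, Cend1, Il17rc and Gm30693. A distance limit does not assign a region to a gene, so the outer regions may belong to neighbouring genes.

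Set among all regions of the same direction, the 9 had median levels near those of the table. The 4 higher regions had a median level of 0.907 in PDGFRα+ cells and 0.370 in CD137+ cells, and all 6271 higher regions had medians of 0.879 in PDGFRα+ and 0.344 in CD137+ cells. Single regions stood farther out. In PDGFRα+ cells the higher region of Fabp4 (0.968) was above the 90th percentile of all higher regions (0.952). In CD137+ cells the higher region of Cd36 (0.501) was at the 90th percentile (0.501). The 5 lower regions had medians of 0.249 in PDGFRα+ cells and 0.780 in CD137+ cells, and the 21870 lower regions had medians of 0.261 in PDGFRα+ and 0.820 in CD137+ cells. Their median length was 287 bases against 216 in the table, and their median number of cytosines 16 against 9, although 4 of the 9 held 8 or 9. Their median density, 3.96 cytosines per 100 bases, was below the 4.62 of the table. The median absolute area statistic was 124, against 57.8 in the table. Of the 9 regions, 6 lay inside a gene span, and the 3 outside were the pair of Retn and the lower region of Gpd1.

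**Figure D3:**
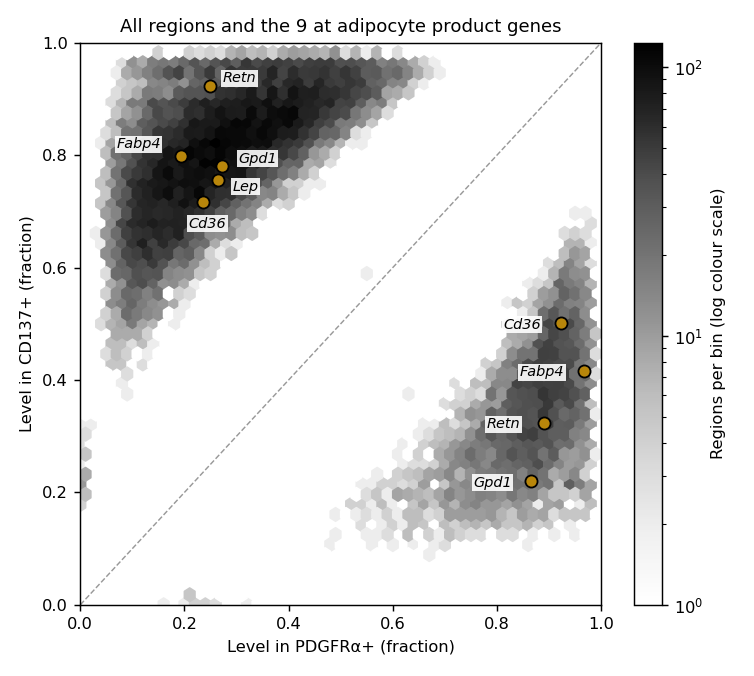
Level of each region in PDGFRα+ cells (x axis) and CD137+ cells (y axis), as fractions. Grey bins hold all 28141 regions on a log colour scale, gold points are the 9 regions at the adipocyte product genes, and the dashed line marks equal levels. The 4 points below the line and the 5 above it lie within the grey clouds.

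Further genes of fat storage and adipokine signalling, 71 genes in 5 lists, were examined in the same way. Of these, 37 had a region within 10 kb (52.1%, against 38.4% of protein-coding genes), with 28 mostly lower in PDGFRα+ cells, 6 mostly higher and 3 evenly split. The mostly lower genes made up 75.7% of the 37, against 69.9% of all protein-coding genes with a region, and the mostly higher genes 16.2%, against 21.8%, so the directions were near those over all genes. The listed genes were longer, with a median span of 19.5 kb against 17.2 kb over protein-coding genes. The median over genes of the mean difference was -0.386, against -0.446 over all protein-coding genes with a region and -0.0290 over the 5 adipocyte product genes with a region. In 4 of those 5 genes a higher and a lower region offset each other in the mean. The value of -0.0290 is thus not a sign of small differences, since each of their regions differed by at least 0.422.

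Of 15 genes of the lipid droplet and of lipolysis, 6 had a region (40.0%, near the 38.4% of protein-coding genes). All 6 were mostly lower in PDGFRα+ cells, with 11 of their 12 regions lower, where 77.7% of all regions were lower. Lipe, which encodes hormone-sensitive lipase, had 1 lower region (level 0.203 in PDGFRα+ and 0.852 in CD137+). Mgll, which encodes monoglyceride lipase, the last enzyme of lipolysis, had 5 lower regions and 1 higher. Plin3, a perilipin gene, was lower in both of its 2 regions (mean of 0.206 in PDGFRα+ and 0.760 in CD137+), and Cidea, a relative of Cidec, was lower in its only region (0.225 in PDGFRα+ and 0.824 in CD137+).

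Of 14 genes of fatty acid uptake and partners of lipoprotein lipase, 7 had a region, against 38.4% of protein-coding genes. Of all protein-coding genes with a region, 69.9% were mostly lower and 21.8% mostly higher. Among the 7 genes of this list, 6 were mostly lower and 1 mostly higher. The exception was Lrp1, which encodes a large lipoprotein receptor, with 3 higher regions and 1 lower (mean of 0.670 in PDGFRα+ and 0.418 in CD137+). Lmf1, whose product folds lipoprotein lipase, and Scarb1, which encodes a lipoprotein receptor, each had 3 lower regions and 1 higher. Acsl1, which encodes an acyl-CoA synthetase that activates fatty acids, had 2 lower and 1 higher.

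In glycerol and triglyceride synthesis, the pathway of Gpd1, 9 of 14 genes had a region (64.3%, against 38.4% of protein-coding genes). Spans in this list ran from 6.2 kb (Pck1) to 133 kb (Gpd2). All of its genes with a region except Aqp7 (15.2 kb) were longer than the median of 17.2 kb over protein-coding genes. A longer span can hold more regions, and the share was not compared with genes of like length. Among the 9 genes with a region, 5 were mostly lower (55.6%, against 69.9% of all protein-coding genes with a region), 3 mostly higher (33.3%, against 21.8%) and 1 split. Gpd1l, a relative of Gpd1, had 4 lower regions and 1 higher (mean of 0.428 in PDGFRα+ and 0.735 in CD137+). Gpd2, the mitochondrial counterpart, had 2 higher and 1 lower (0.701 in PDGFRα+ and 0.576 in CD137+). Gpam, which encodes the acyltransferase of the first step, was lower in all 3 of its regions (0.205 in PDGFRα+ and 0.734 in CD137+), and Agpat3, which encodes an acyltransferase of the second step, had 2 lower and 1 higher.

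Of 13 genes of lipogenesis and glucose uptake, 5 had a region (38.5%, near the 38.4% of protein-coding genes). Among these, 4 were mostly lower (80.0%, against 69.9% of all protein-coding genes with a region) and 1 was split. Lower regions made up 7 of the 10 in this list, where 77.7% of all regions were lower. Elovl6, a fatty acid elongase gene, was the split one, with 3 regions in each direction. The others named here each had a single lower region. Acaca, the acetyl-CoA carboxylase gene, had a level of 0.335 in PDGFRα+ cells and 0.835 in CD137+ cells. Scd2, a fatty acid desaturase gene, had 0.249 in PDGFRα+ cells and 0.796 in CD137+ cells, and Srebf1, a transcription factor gene of lipogenesis, had 0.280 in PDGFRα+ cells and 0.901 in CD137+ cells.

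Of 15 adipokine and receptor genes, 10 had a region, against 38.4% of protein-coding genes. Among these 10, 7 were mostly lower, 2 mostly higher and 1 split. Of all protein-coding genes with a region, 69.9% were mostly lower and 21.8% mostly higher, so the directions in this list were near those over all genes. Cdh13, which encodes a cell-surface receptor of adiponectin, had 13 lower and 3 higher regions in a span of 1180 kb, and Adipor2, another adiponectin receptor gene, had 1 of each. Nnmt was also counted in this list, although it encodes a methyltransferase of nicotinamide and neither an adipokine nor a receptor. It was lower in both of its 2 regions (mean of 0.208 in PDGFRα+ and 0.685 in CD137+). Angpt1, a gene for a vascular growth factor, had 2 higher regions and 1 lower (0.671 in PDGFRα+ and 0.475 in CD137+).

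**Figure D4:**
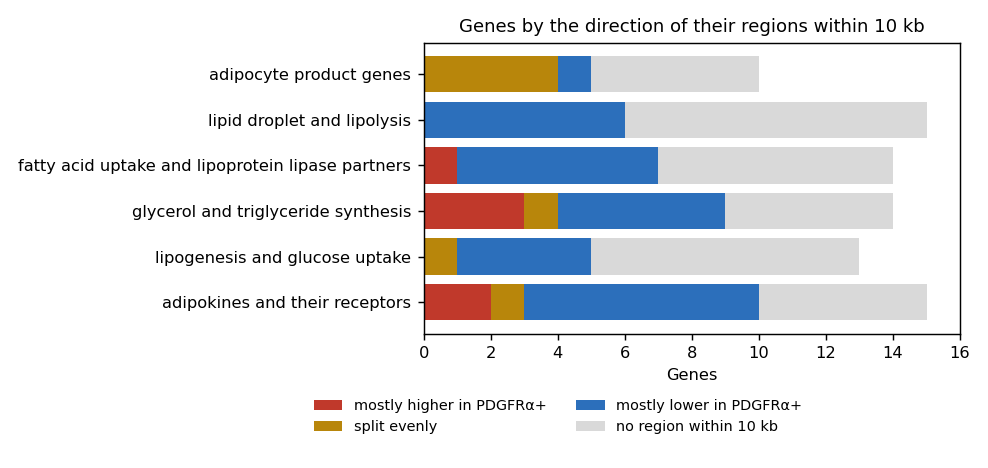
Number of genes (x axis) by the direction of their regions within 10 kb, for the 10 adipocyte product genes and the 5 pathway lists. Red marks genes mostly higher in PDGFRα+ cells, gold those split evenly, blue those mostly lower and grey those with no region, and the adipocyte product genes have 4 split and 1 mostly lower.

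The markers of other cell types also carried regions, to be read against 38.4% of protein-coding genes with a region. The markers were longer, with a median span of 37.5 kb against 17.2 kb over protein-coding genes. Of pairs of a protein-coding gene and a region within 10 kb, 26.3% were higher in PDGFRα+ cells, and of all regions 22.3%. Of 7 leukocyte markers 4 had a region (57.1%), with 10 of 12 regions higher. Ptprc alone gave 8 of the 10, Itgam gave 1, Csf1r was split with 1 of each, and Cd3e was lower in its only region. All 5 endothelial markers had a region, with 9 of 14 higher. Pecam1 (4 of 4), Cdh5 (2 of 2) and Kdr (3 of 4) were mostly higher, while Tek (3 of 3) and Emcn (1 of 1) were lower. Of 5 mural markers 4 had a region, with 0 of 5 regions higher, and of 5 mesothelial markers 4 had a region, with 2 of 15 higher. The part of other cells in either library in the differences at the adipocyte product genes was not tested.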

How the data were processed

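Genomic DNA of 2 libraries, 1 per group, was assayed by whole-genome bisulfite sequencing. The authors deposited a table of differentially methylated regions, in which the methylation level of each library is a fraction from 0 to 1. The difference (PDGFRα+ minus CD137+) and the area statistic are deposited as signed scores, per the file headers. Positions are on mm10 according to the submitters' processing notes. Aligner, callers, thresholds and coverage minimum are not given in these sources, and only regions that the authors called as different are listed.

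Where a region edge fell in a RefSeq promoter sequence, the base after the deposited start was a CpG cytosine of either strand in 245 of 245 cases, so starts count from 0 and are printed here plus 1. The last base was such a cytosine in 235 of 235 cases, and the cytosine number never exceeded the CpG cytosines of both strands in 88 regions lying inside a window, but exceeded the number of CpG pairs in 73 of them. Cytosines are therefore counted on both strands.

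Regions were joined to RefSeq (GRCm38.p6) gene spans with 10 kb on each side. Exons and introns were not used here. Checked by brute force on 300 genes, the search differed in 0. No test was made, since each group had 1 library. Counts are set beside the same over all protein-coding genes. The genes, the lists and the named genes (all 10 genes, and up to 4 per list by number of regions, then by largest difference) were chosen with earlier results of these data known. Alternatives covered the flank, minimum differences and cytosines, the statistic, the overlap rule and weights. Python 3.11.15, numpy 2.4.6, pandas 2.3.3 and matplotlib 3.10.9 were used.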

Additional observations from a re-analysis of the deposited data

How the results depend on the processing

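No paired analysis was possible because each group had 1 library. The count of 9 regions at the adipocyte product genes was 6 to 9 with the gene span only, with 2 kb on each side, with minimum differences of 0.3 or 0.5, with at least 5 cytosines, with the larger area statistics and with midpoints in the window. It was 20 with 50 kb on each side, 16 of them lower in PDGFRα+ cells, and 5 with at least 10 cytosines. The number of genes with a region, 5, became 9 with 50 kb and 3 with differences of at least 0.5, and stayed at 4 or 5 under the other settings. The mean difference of -0.0637 turned to 0.00707 with the gene span only, where 3 regions were higher and 3 lower. It was -0.318 with 50 kb, -0.00402 with differences of at least 0.5, -0.111 with at least 10 cytosines and -0.124 with the larger statistics. Weighted by length it was -0.0589, weighted by cytosines -0.136, and as a mean over genes -0.106. The number of list genes with a region, 37, was 21 with at least 10 cytosines, because fewer regions qualify, and 29 under the other 3 settings. Levels rest on an unknown depth, and 4 of the 9 regions held fewer than 10 cytosines.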

Other observations

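Of 2 motifs searched on both strands in the 8 promoter windows of these genes, only TTGCNNAA, a sequence bound by C/EBP factors, was found; 10.8% of 32851 windows hold it. Lep held it once, 55 bases before the listed start, as ttgCGcaa, with a CpG pair at its centre. Plin1, which had no region within 50 kb, held it at 187 and 58 bases before the start, and Cidec at 198 bases before it in the window of 1 of its 2 listed starts. TATAAA (13.6% of windows) was in none of the 8 windows as spelled. Pnpla2, also without a region within 10 kb, had 18 CpG pairs in its window, Cidec 6 and 7, and Plin1 2.

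Of the genes of the sorting markers, Pdgfra had 2 regions within 10 kb, both lower in PDGFRα+ cells, and Tnfrsf9, which encodes CD137, had 0. Over all protein-coding genes, 38.4% had a region within 10 kb. Of those with exactly 2 regions, 54.5% had both lower, so the pair at Pdgfra had the most common pattern.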
